A study of Caenorhabditis elegans with 12 samples.

Results

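The body-shape cuticle collagens are genes whose mutants are dumpy (short and fat, dpy) or rolling (rol). The 10 genes listed were dpy-2, dpy-3, dpy-5, dpy-7, dpy-8, dpy-10, dpy-13, dpy-14, dpy-17 and rol-6, and the members were the probe sets that the platform's annotation assigns to them alone. This gave 10 probe sets for 9 genes, out of 22548 probe sets tested and 17118 genes with a probe set of their own. The gene dpy-2 had 2 probe sets, and dpy-10 had none in the annotation used here, so it was not analysed.

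Nematode cuticle collagens are made by the epidermis (hypodermis), trimerised and hydroxylated in the secretory pathway, cleaved outside the cell and cross-linked into the cuticle. They are transcribed in waves, first in the late embryo and then before each molt. The products of dpy-2, dpy-3, dpy-7, dpy-8 and dpy-10 are furrow collagens, needed for the ring-shaped grooves of the cuticle. DPY-13 lies in the annuli between the furrows, DPY-5 is another cuticle procollagen, and DPY-17 works with SQT-3. Dominant alleles of rol-6 make animals roll and are a common transgenesis marker.

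The arrays measured RNA from sorted embryonic cells of C. elegans in 4 groups of 3: mir-124 mutant GFP+, mutant GFP-, wild-type GFP+ and wild-type GFP-. The design sets cells with an active mir-124 promoter against cells without it. It also sets cells of the mutant, which lacks the microRNA miR-124, against wild-type cells. No mutant allele is named in the labels. The labels describe an integrated mir-124 promoter GFP transgene, injected with a lin-15 rescue plasmid into lin-15(n765) animals and outcrossed into the N2 background, so GFP+ marks cells by promoter activity and GFP- is every other sorted cell. Cells of dissociated embryos spent 24 hours in culture before sorting, 500000 cells went into each sample, and the extracted RNA was amplified. The triplicates are called biological, but no label says whether each had a culture of its own, so the p-values cover only the spread among these arrays.

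Ciliated sensory neuron markers separated the fractions, and 1 library went against its label. Their mean log2 signal over 22 genes was 7.997 to 8.37 on mutant GFP+ arrays and 5.02 to 5.12 on mutant GFP- arrays, and 7.78 to 8.09 on the wild-type GFP+ and 4.91 to 5.01 on the wild-type GFP- arrays of replicates 1 and 2. In wild-type replicate 3 it was 8.62 in the GFP+ library and 8.67 in the library labelled GFP-. That library correlated at 0.977 with the GFP+ library of its number, and at 0.893 and 0.903 with wild-type GFP- replicates 1 and 2. Control probe sets at the 3' end exceeded those in the middle of the same transcripts by 4.02 and 3.97 log2 units in the replicate 3 pair, and by 1.78 to 2.34 on the other 10 arrays. Results are therefore given from all 12 arrays and, beside them, from the 10 arrays without that pair.

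Among the furrow collagens of the 10 listed genes, dpy-2, dpy-3 and dpy-7 had lower signal in mutant GFP+ than in mutant GFP- cells. The log2 signal of dpy-2 was 4.90, 4.44 and 5.09 on the mutant GFP+ arrays of replicates 1, 2 and 3, against 8.83, 7.22 and 9.35 on the mutant GFP- arrays. For dpy-3 it was 5.36, 5.04 and 5.42 in mutant GFP+ cells, against 9.36, 7.10 and 8.93 in mutant GFP- cells. For dpy-7 it was 5.68, 4.91 and 5.66 in mutant GFP+ cells, against 9.32, 7.47 and 9.99 in mutant GFP- cells. In none of these genes did the 2 fractions overlap; the GFP+ arrays lay close together, and GFP- replicate 2 lay well below GFP- replicates 1 and 3. A bulk signal cannot tell fewer cells of a type from less RNA per cell. In the limma fit over 12 arrays, dpy-2 fell by 3.66 ± 0.70 on the log2 scale (SE), or 12.6-fold (adjusted p = 0.0162), and its second probe set fell by 3.37 ± 0.70 (adjusted p = 0.0184). The gene dpy-3 fell by 3.19 ± 0.56 (adjusted p = 0.0142) and dpy-7 fell by 3.51 ± 0.72 (adjusted p = 0.018).

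The fourth measured furrow collagen, dpy-8, went the other way. Its log2 signal was 7.14, 7.93 and 7.78 on the mutant GFP+ arrays, against 5.85, 5.82 and 5.77 on the mutant GFP- arrays. Here the GFP- arrays were nearly alike and every GFP+ array stood above them. The gene rose by 1.80 ± 0.20 on the log2 scale, or 3.49-fold, with a 95% interval of 1.37 to 2.24 (adjusted p = 0.0118). It was higher in the library labelled GFP+ in all 6 same-numbered pairs of the 2 strains, by 1.06 to 2.11. These include the wild-type replicate 3 pair (1.27), whose library labelled GFP- had ciliated neuron markers at the GFP+ level. The share of all genes higher in all 6 pairs is not given here. The call was lost without mutant GFP+ replicate 2 (1.65, adjusted p = 0.0558). The probe sets of dpy-2 (the first), dpy-3, dpy-5, dpy-7 and dpy-8 carry the suffix _s_at, which marks sets that can bind transcripts of related genes.

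**Figure D1:**
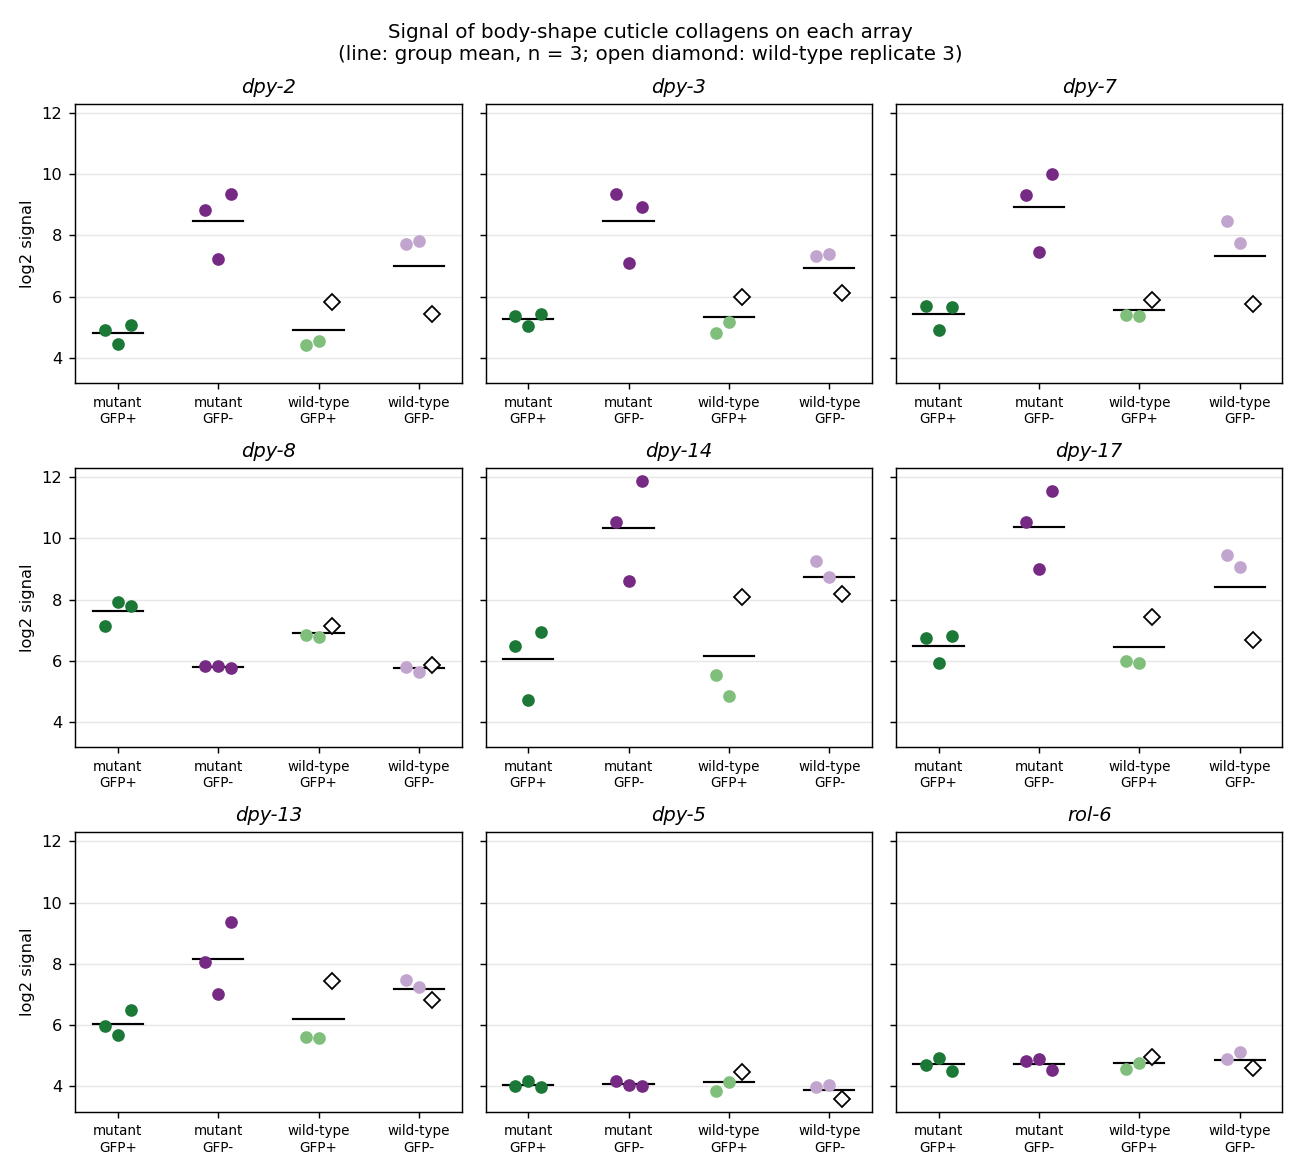
Log2 signal (vertical axes) of the 9 measured genes on each array, by group (horizontal axes); circles are arrays, open diamonds the wild-type replicate 3 pair and lines the group means (n = 3). In the mutant, dpy-2, dpy-3, dpy-7, dpy-13, dpy-14 and dpy-17 lie lower in GFP+ than in GFP- cells, dpy-8 lies higher, and dpy-5 and rol-6 overlap.

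Outside the furrow collagens, dpy-14 and dpy-17 fell furthest. The log2 signal of dpy-14, a collagen gene known from embryonic and early larval defects, was 6.48, 4.73 and 6.94 on the mutant GFP+ arrays, against 10.54, 8.59 and 11.88 on the mutant GFP- arrays. For dpy-17 it was 6.74, 5.92 and 6.81 in mutant GFP+ cells, against 10.54, 8.99 and 11.55 in mutant GFP- cells. Replicate 2 was the lowest in both fractions for both genes, and the fractions did not overlap. The gene dpy-14 fell by 4.29 ± 0.97 on the log2 scale (adjusted p = 0.0235), ranking 11 among the falls of all 22548 probe sets, and dpy-17 fell by 3.87 ± 0.80 (adjusted p = 0.0184), ranking 33.

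The remaining collagens outside that group were dpy-13, dpy-5 and rol-6. The log2 signal of dpy-13 was 5.98, 5.66 and 6.49 on the mutant GFP+ arrays, against 8.07, 7.00 and 9.36 on the mutant GFP- arrays. The fractions did not overlap, but the difference of -2.10 ± 0.61 was not past the threshold (adjusted p = 0.0503). It was past it when replicate number was blocked on (adjusted p = 0.0344) and in the 10-array fit (adjusted p = 0.0112). The dpy-13 probe set ends in _x_at and can bind transcripts of other collagens. The signal of dpy-5 was 4.02, 4.18 and 3.97 in mutant GFP+ cells, against 4.17, 4.03 and 4.02 in mutant GFP- cells. These values lay at the lower quartile of the arrays (4.06 to 4.22), the overlapping fractions differed by -0.02 ± 0.18, and the 95% interval was -0.41 to 0.38. For rol-6 the signal was 4.71, 4.93 and 4.51 in mutant GFP+ cells, against 4.82, 4.88 and 4.53 in mutant GFP- cells. These also overlapped, with a difference of -0.03 ± 0.18 and an interval of -0.42 to 0.37. On the mutant arrays rol-6 lay at percentiles 33.3 to 42.3 of the probe sets, a low signal that limits what the overlap can show.

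In all, 5 of the 9 genes fell and 1 rose in mutant GFP+ against mutant GFP- cells, where 6.60% of all genes fell and 6.36% rose. The arrays of the fractions did not overlap for 6 genes on the lower side and 1 on the higher side, against 20.7% and 20.1% of all probe sets. The median difference was -3.19 over the 9 genes and 0.01 over all genes. In the 10-array fit 6 fell and 1 rose, against 14.6% and 14.3% of all genes. Leaving out 1 mutant array from the 12 moved the count of 6: 1 gene passed without GFP+ replicate 1, 0 without GFP+ replicate 2, 2 without GFP+ replicate 3, 2 without GFP- replicate 1 and 1 without GFP- replicate 3. By gene, the calls of dpy-2, dpy-7, dpy-14 and dpy-17 were lost in each of these 5 leave-outs, with adjusted p up to 0.0663, 0.0737, 0.0919 and 0.0748 in that order. The call of dpy-3 was lost in 3 of them (adjusted p up to 0.0602) and that of dpy-8 in 1. Leaving out 1 array from the 10 always left 7.

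In wild-type cells 7 of the 9 differences were below 0 over 12 arrays, and whether any passed depended on the replicate 3 pair. The log2 signal of dpy-17 was 5.98, 5.92 and 7.44 on the wild-type GFP+ arrays, against 9.46, 9.06 and 6.69 on the wild-type GFP- arrays. For dpy-2 it was 4.41, 4.54 and 5.81 in wild-type GFP+ cells, against 7.72, 7.83 and 5.44 in wild-type GFP- cells. For dpy-14 it was 5.53, 4.85 and 8.07 in wild-type GFP+ cells, against 9.27, 8.75 and 8.19 in wild-type GFP- cells. For these genes replicates 1 and 2 were well apart between the fractions, and the replicate 3 pair lay between them. Similarly, dpy-3 had 4.82, 5.17 and 5.995 in wild-type GFP+ cells, against 7.33, 7.38 and 6.13 in wild-type GFP- cells. The signal of dpy-7 was 5.42, 5.38 and 5.90 in wild-type GFP+ cells, against 8.45, 7.76 and 5.76 in wild-type GFP- cells. For dpy-13 it was 5.605, 5.57 and 7.45 in wild-type GFP+ cells, against 7.48, 7.24 and 6.82 in wild-type GFP- cells. The replicate 3 libraries with the 2 labels were close for dpy-3 and dpy-7, and for dpy-13 the GFP+ library was the higher one. The gene dpy-8 had 6.85, 6.77 and 7.13 in wild-type GFP+ cells, against 5.79, 5.64 and 5.86 in wild-type GFP- cells, with no overlap. Signal ranged over all 6 wild-type arrays from 3.59 to 4.45 for dpy-5 and from 4.58 to 5.12 for rol-6, and the fractions overlapped for both.

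Over 12 arrays limma called none of the 9 genes between the wild-type fractions, where 0.00584% of all genes were called; 6 of the 9 had an unadjusted p under 0.05, as did 12.8% of all genes. Of the 9, dpy-8 did not overlap on the higher side, where 5.49% of all probe sets did not, and dpy-3 and dpy-14 on the lower side, where 5.23% did not. In the 10-array fit 5 genes fell and 1 rose, against 8.07% and 8.78% of all genes. The falls there were -3.82 ± 0.97 for dpy-14 (adjusted p = 0.0267), -3.31 ± 0.66 for dpy-17 (adjusted p = 0.0088), -3.30 ± 0.55 for dpy-2 (adjusted p = 0.00358), -2.71 ± 0.67 for dpy-7 (adjusted p = 0.0236) and -2.36 ± 0.58 for dpy-3 (adjusted p = 0.0234). The rise of dpy-8 was 1.09 ± 0.23 (adjusted p = 0.0113), and dpy-13 differed by -1.77 ± 0.60 (adjusted p = 0.0803). Leaving out 1 of the 10 arrays gave 1 to 7 calls, with 1 (dpy-2) without wild-type GFP+ replicate 1 or 2, and 2 without wild-type GFP- replicate 1 or 2. Without a wild-type array 1 group holds a single array, and the fit takes its spread from the groups with more arrays. Leaving only 1 array of the replicate 3 pair out of the 12 gave 1 call (dpy-8) without the GFP+ library and 5 without the library labelled GFP-, and array weights over the 12 arrays gave 7.

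**Figure D2:**
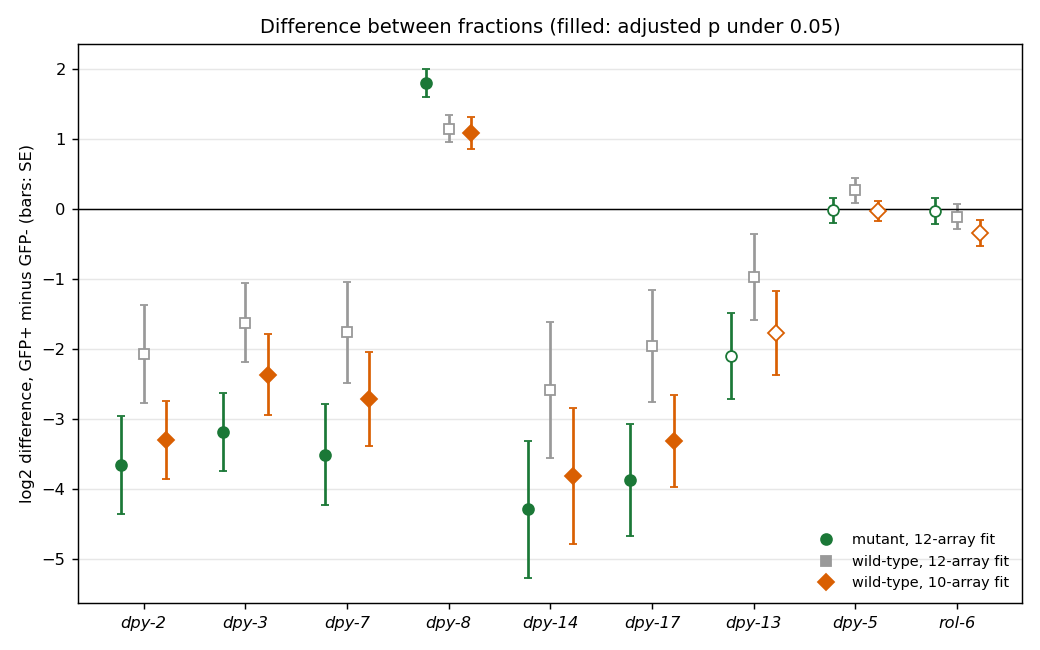
Log2 difference of GFP+ minus GFP- cells (vertical axis) for each gene (horizontal axis) in the mutant and in wild-type, from 12 or 10 arrays; bars are standard errors and filled marks have an adjusted p under 0.05. The values of dpy-2, dpy-3, dpy-7, dpy-13, dpy-14 and dpy-17 lie below 0 in the 3 fits shown and further below it in wild-type without the replicate 3 pair, and dpy-8 lies above 0 in the 3 fits.

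Within the wild-type replicate 3 pair, dpy-8 differed in the direction of the labels, while few probe sets called in the mutant differed as much in their mutant direction. It had 7.13 in the GFP+ library and 5.86 in the library labelled GFP-, a difference of 1.27 from 1 array each, with no replicate check. Of the 1309 probe sets higher in mutant GFP+ cells, 2 (0.153%) were higher by over 1 in this pair, and dpy-8 alone reached its own value. Their median was 0.03. Of the 1421 probe sets lower in mutant GFP+ cells, 27 (1.90%) were lower by over 1 in the pair, with a median of 0.02. Over all 22548 probe sets, 49 reached the dpy-8 value, and the SD of the differences in the pair was 0.47. The share of all probe sets that differed by over 1 is not given here. The dpy-8 difference therefore cannot be read as particular to this gene. The other genes differed by -0.13 (dpy-3) to 0.87 (dpy-5) in this pair. The GFP+ library of the pair had the highest signal of the 6 GFP+ arrays for 8 of the 9 genes, all but dpy-8. For dpy-14 it had 8.07, against 6.94 on the next highest array, and for rol-6 4.96 against 4.93. The share of all probe sets highest on that array is not given here, so the count cannot be read as particular to these genes.

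**Figure D3:**
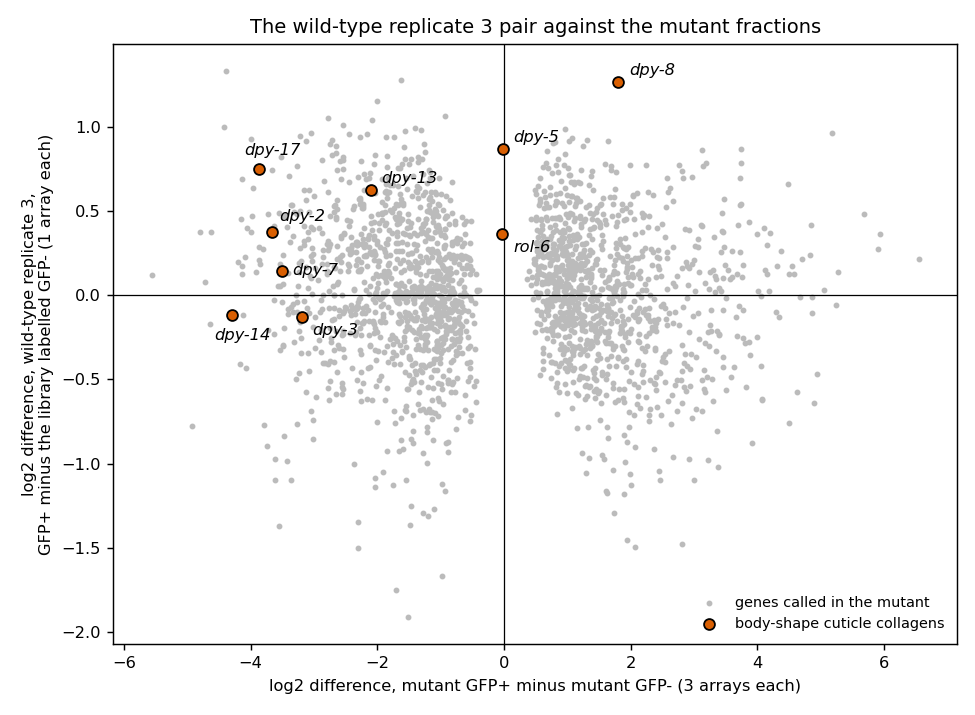
Log2 difference in the wild-type replicate 3 pair (vertical axis, 1 array each) against the log2 difference of mutant GFP+ minus mutant GFP- cells (horizontal axis, 3 arrays each); grey points are genes called in the mutant and orange points the 9 collagen genes. The grey points scatter around 0 on the vertical axis whatever their mutant difference, and dpy-8, at 1.80 and 1.27, lies above all grey points to the right of 0.

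Between the strains, limma called none of the 9 genes in GFP+ or GFP- cells, with 12 or 10 arrays, where 0.0175% and 0.0234% of all genes were called over 12 arrays and 0.0234% and 0.0175% over 10. In GFP+ cells dpy-8 had 7.14, 7.93 and 7.78 on the mutant arrays, against 6.85, 6.77 and 7.13 on the wild-type arrays. The lowest mutant array and the highest wild-type array, which was replicate 3, lay 0.01 apart, and 2.79% of all probe sets did not overlap in this direction. Its difference was 0.70 ± 0.20, with a 95% interval of 0.27 to 1.14, an unadjusted p of 0.00466 and an adjusted p of 1. It was the 1 gene of the 9 with an unadjusted p under 0.05 there, as 1.08% of all genes had. Over the 10 arrays the limma difference of dpy-8 was 0.81 ± 0.21 (unadjusted p = 0.00368, adjusted p = 0.9998). There 3.16% of all genes had an unadjusted p under 0.05. The interaction of strain and fraction tests whether the fractions differ more in 1 strain. For dpy-8 it was 0.65 ± 0.28 over 12 arrays (limma, unadjusted p = 0.039, adjusted p = 1) and 0.71 ± 0.30 over 10 (unadjusted p = 0.0396). Limma called none of the 9 for it, nor any other gene (0%). In both fits dpy-8 was the 1 of the 9 with an unadjusted p under 0.05, against 1.51% of all genes over 12 arrays and 1.24% over 10.

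In GFP- cells 8 of the 9 differences of mutant minus wild-type were above 0, with a median of 1.47 over 12 arrays and 0.79 over 10, against -0.01 over all genes in both. The largest over 12 arrays was dpy-17, with 10.54, 8.99 and 11.55 on the mutant GFP- arrays, against 9.46, 9.06 and 6.69 on the wild-type GFP- arrays. Its difference was 1.95 ± 0.80 (adjusted p = 0.822) over 12 arrays and 1.10 ± 0.60 (adjusted p = 0.878) over 10. An unadjusted p under 0.05 was found for dpy-3, dpy-7 and dpy-17 over 12 arrays, where 5.06% of all genes had one, and for none of the 9 over 10, where 5.51% did. For dpy-17, mutant replicates 1 and 3 lay above all wild-type arrays and mutant replicate 2 did not. The mean of the 9 genes was 7.95, 6.79 and 8.38 on the mutant GFP- arrays, against 7.15, 6.98 and 5.90 on the wild-type GFP- arrays. Molting genes had list means of 7.44, 6.59 and 8.06 on mutant GFP- arrays, against 7.07, 7.14 and 5.67 on wild-type GFP- arrays. The list of epidermis identity and junction genes (epidermis genes below) had means of 8.95, 8.48 and 9.30 on mutant GFP- arrays. On wild-type GFP- arrays its means were 8.88, 8.88 and 8.07. The part of these lists in the collagen values was not tested.

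**Figure D4:**
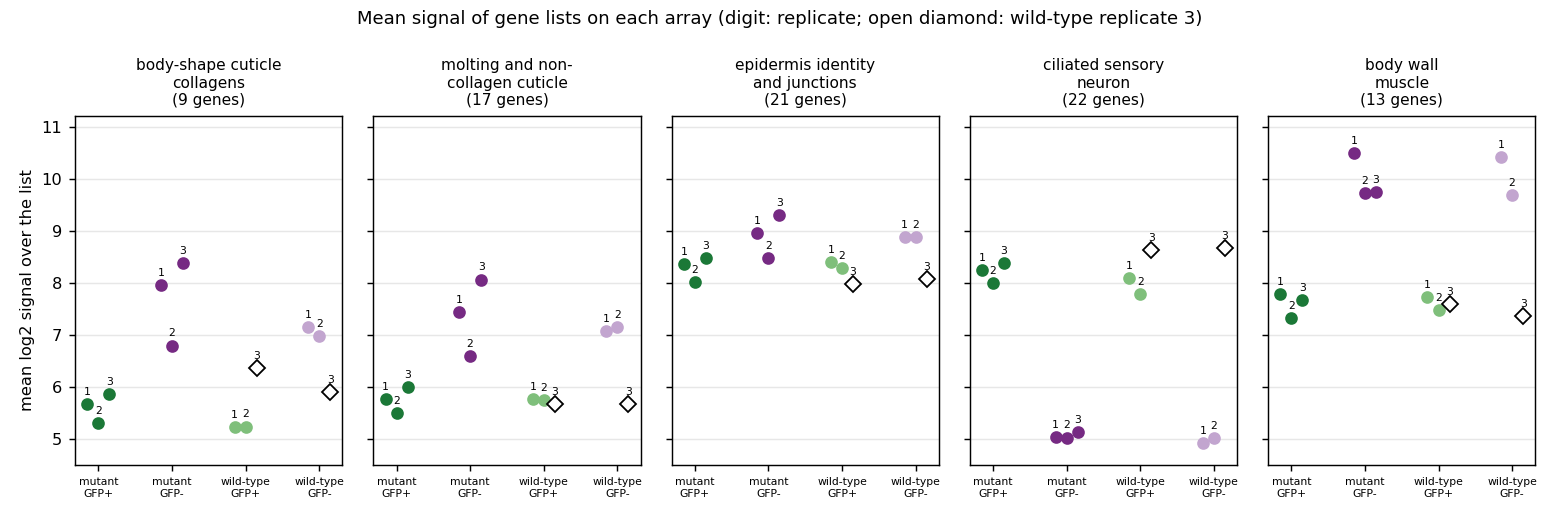
Mean log2 signal (vertical axis) of 5 gene lists on each array, by group (horizontal axes), with the replicate number above each point and the wild-type replicate 3 pair as open diamonds. On the mutant GFP- arrays replicate 2 is the lowest for the collagens, molting genes and epidermis genes. The wild-type replicate 3 library with the GFP- label lies with the GFP+ arrays for all 5 lists.

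Some other collagens also fell in mutant GFP+ against mutant GFP- cells, and 0 of those listed rose. Of 9 measured body-shape collagens outside the 10 genes, 2 fell and 0 rose, with a median of -0.44: sqt-3, the partner of dpy-17, fell by 3.24 ± 0.80 (adjusted p = 0.0301), and the blister collagen bli-2 by 0.44 ± 0.12 (adjusted p = 0.0377). Of 128 col genes, 34 fell and 0 rose, with a median of -0.34, led by col-121 (-3.64 ± 0.73, adjusted p = 0.0174), col-43 (-3.16), col-109 (-2.93) and col-125 (-2.77). Of 3 basement membrane collagens, the type IV chains let-2 (-3.62) and emb-9 (-2.58) fell, and cle-1 differed by 0.24. In the 10-array fit the lower counts were 6 of 9, 56 of 128 and 2 of 3 in the mutant, and 2, 20 and 2 in wild-type, with 0 higher; over 12 arrays 0 genes of these lists were called between the wild-type fractions.

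**Figure D5:**
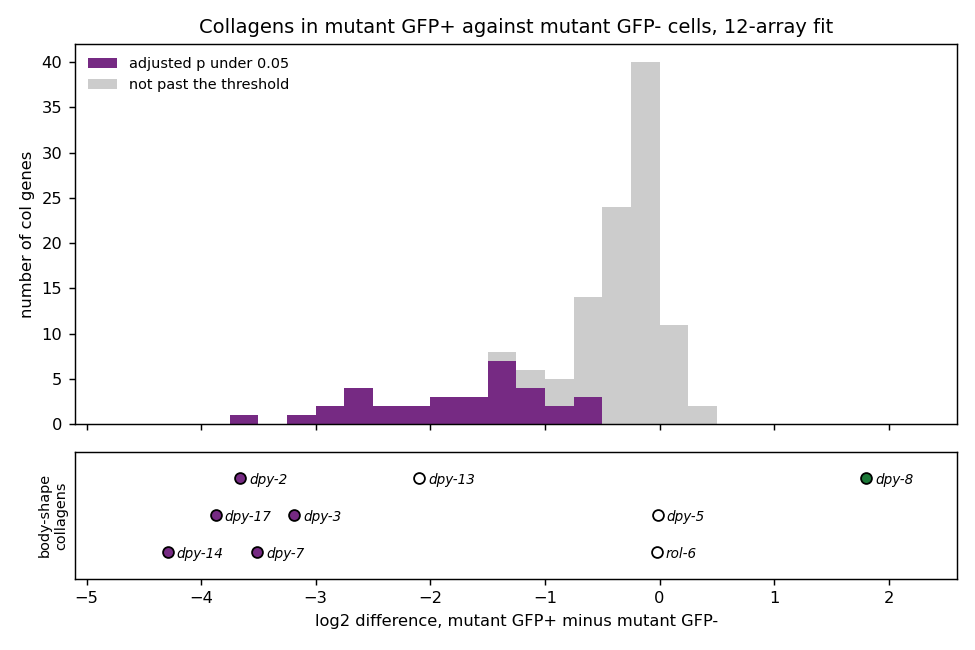
Number of col genes (upper vertical axis) by log2 difference of mutant GFP+ minus mutant GFP- cells (horizontal axis), with those past the threshold in purple, and below it the 9 body-shape collagens on the same axis. The col genes past the threshold all lie below 0, as do dpy-2, dpy-3, dpy-7, dpy-14 and dpy-17, while dpy-8 lies at 1.80, above every col gene.

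Few genes that process collagen passed over 12 arrays. Of 15 maturation and cross-linking genes, 1 fell, the thioredoxin-like dpy-11 (-0.68 ± 0.19, adjusted p = 0.045), and the median was -0.43. Of 17 molting and non-collagen cuticle genes, 7 fell and 0 rose, with a median of -1.88. They included mlt-11 (-3.32 ± 0.74, adjusted p = 0.0224), a protease inhibitor-like protein of the molt, the matrix protein noah-1 (-2.92 ± 0.67, adjusted p = 0.0239), mlt-8 (-2.87 ± 0.56, adjusted p = 0.0166) and the cuticlin cut-2 (-2.71 ± 0.77, adjusted p = 0.0456). In the 10-array fit 6 of the maturation and 11 of the molting genes fell in the mutant, and 3 and 6 in wild-type.

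Markers of the cell types in the sorts gave a mixed picture for the list of epidermis identity and junction genes. That list is not made of epidermis markers alone, so its counts do not describe the epidermis by itself. Of its 21 genes, 4 fell and 1 rose in mutant GFP+ cells, with a median of -0.52. The lipid-binding protein gene lbp-1 fell by 2.87 ± 0.45 (adjusted p = 0.0133), the GATA factor gene elt-3 by 2.19 ± 0.52 (adjusted p = 0.0268), lin-1 by 1.08 ± 0.20 (adjusted p = 0.0155) and ifb-1 by 1.03 ± 0.28 (adjusted p = 0.0394), while egl-18 rose by 0.80 ± 0.23 (adjusted p = 0.0479). The early epidermal factors lin-26 (-0.14) and elt-1 (0.07) were not called. Of 13 body wall muscle genes 7 fell, of 11 intestine genes 4 fell and 1 rose, and of 8 measured glia genes 1 fell. Of 22 ciliated neuron genes 15 rose, and of 14 pan-neuronal genes 10 rose. In the 10-array fit 10 epidermis genes fell and 5 rose in the mutant, and 5 fell and 4 rose in wild-type. There all 13 muscle and all 22 ciliated genes passed in both strains, in the same directions. Of the pan-neuronal genes 12 rose in the mutant and 11 in wild-type. Of the intestine genes 6 fell and 1 rose in the mutant, and 5 fell in wild-type; of the glia genes 2 fell and mls-2 rose in the mutant, and 1 fell in wild-type. The list means did not overlap between mutant GFP+ and mutant GFP- arrays for epidermis (8.02 to 8.47 against 8.48 to 9.30), muscle (7.33 to 7.79 against 9.73 to 10.5), intestine (5.83 to 5.97 against 6.58 to 7.01), pan-neuronal genes (9.19 to 9.36 against 7.63 to 8.10) and ciliated neurons. They overlapped for glia (5.59 to 5.80 against 5.68 to 5.98); the part of cell makeup in the collagen values was not tested.

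Across the 12 arrays dpy-2, dpy-3, dpy-7, dpy-13, dpy-14 and dpy-17 correlated with each other at 0.896 to 0.992, and dpy-8 with them at -0.77 to -0.63. Across the 10 arrays without the replicate 3 pair the ranges were 0.938 to 0.993 and -0.85 to -0.71. Both sets of values describe arrays that fall into 2 fractions, between which most of these genes differ. The genes most like a member, given next, rest on the 12 arrays only. Among 4675 genes with an SD of at least 0.5, those most like dpy-17 were lpr-6 (Pearson r 0.987), icl-1 (0.984), lpr-4 (0.983), col-121 (0.982) and haly-1 (0.982). Those most like dpy-14 were col-125 (0.987), col-43 (0.987), mtre-1 (0.982), T19B10.2 (0.981) and Y110A2AL.4 (0.98); the col-125, col-43 and icl-1 probe sets end in _x_at. For dpy-8 the values were lower: H32C10.1 (0.927), ergi-3 (0.917), the chemoreceptor-family gene sra-37 (0.914), M02A10.1 (0.905) and the potassium channel gene kqt-1 (0.9).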

How the data were processed

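For each of 12 Affymetrix C. elegans arrays the deposited table holds 1 log2 signal per probe set. Per the submitters' processing notes, RMA, MAS5, affy and limma were used; which of them made the table is not given there. Array medians lay between 5.40 and 5.51 and nothing was rescaled. The number of arrays limits the precision; scanner files were not used.

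Of 22625 probe sets, 77 controls were set aside. The platform annotation gives 20766 of the rest 1 gene, 887 several and 895 none; symbols were checked by gene identifier against the RefSeq annotation of WBcel235 and 0 changed. Where a gene had several probe sets of its own, the one brightest on average stood for it. Tests used limma 3.58.1 in R 4.3.3 (a mean per group over all 12 arrays, eBayes, 2-sided, Benjamini-Hochberg over 22548 probe sets, threshold 0.05), tested on simulated data. Figures used matplotlib 3.10.9.

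All 10 genes are named whatever their p. In the collagen, maturation, molting and epidermis lists, up to 4 rises and 4 falls past the threshold with the largest mutant change were named. The rule was planned for the muscle, intestine, glia, ciliated and pan-neuronal lists too, but for these counts are given instead. The genes lin-26, elt-1, cle-1 and mls-2 were named after their values were seen. For dpy-8, dpy-14 and dpy-17 the 5 genes most like them by Pearson r were named. The genes, lists and 10-array fit were chosen with earlier results of these data known. Deviations from the group means were correlated across probe sets between same-numbered arrays. For GFP+ and GFP- arrays the values were 0.36, 0.435 and 0.359 in the mutant, and 0.485, 0.41 and 0.418 in wild-type. Between the strains they were 0.278, 0.185 and 0.229 for GFP+ arrays, and 0.232, -0.0696 and -0.0294 for GFP- arrays. The wild-type group means included the replicate 3 pair. Values that involve wild-type arrays therefore cannot separate pairing by number from the effect of that pair. The numbers were read as pairing the arrays, and fits with the number as a block were an alternative for every comparison.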

Additional observations from a re-analysis of the deposited data

How the results depend on the processing

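The counts over the 9 genes were recomputed with quantile normalization, an array-median shift, array weights, the 6 arrays compared, trended and robust eBayes, without the dimmest 25% of probe sets, with any probe set of a gene, with the replicate block, without the wild-type replicate 3 pair and without each array in turn. The mutant count of 6 was 6 or 7 in all of these but the last, where it ran from 0 to 7. The wild-type count of 0 was 6 without the pair and 7 with array weights, 1 without wild-type GFP+ replicate 3 and 5 without wild-type GFP- replicate 3, and the leave-out range was 0 to 5. The counts between strains and for the interaction were 0 throughout. The replicate block gave 7 for the mutant, where dpy-13 passed, and 0 for the other 4 comparisons, and changed no other call. Of 24 results per gene, 19 kept their direction in every alternative. The others were uncalled values near 0. For dpy-5 in the mutant the difference was 0.0441 with the median shift and -0.0782 to 0.0329 over the leave-outs, and in wild-type it was -0.0276 over 10 arrays. For rol-6 in the mutant it was 0.0008 with quantile normalization, 0.0349 with the median shift and -0.1315 to 0.0766 over the leave-outs, and in wild-type -0.2373 to 0.0209 over the leave-outs. For dpy-8 between strains in GFP- cells it was -0.0148 to 0.0990 over the leave-outs. The causes were not tested. The dim filter left dpy-5 without a value, and the interaction has no 6-array fit. Leaving out 1 of the 10 arrays, added after seeing the data, gave 7 in the mutant each time and 1 to 7 in wild-type, with 2 without wild-type GFP- replicate 1 or 2.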
